A study of Homo sapiens with 6 samples.

Results

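The 40 genes described here encode lysosomal hydrolases and their helpers, lysosomal membrane proteins, subunits of the vacuolar proton pump, and autophagy proteins with the transcription factors TFEB and TFE3. They were matched by gene name in a count table of 58735 genes, and all 40 were found once and had enough counts to be tested, among 15768 tested genes. The cells were ES2, an ovarian cancer line labelled as high-grade serous carcinoma, here as a single line that both groups share. Control cells (genotype label WT) received a control siRNA, a short duplex that directs destruction of matching mRNA, and siUAP1 cells (label UAP1 knockdown) received UAP1 siRNAs. Knockdown used 2 UAP1 siRNAs, against 1 control siRNA, and the labels leave unsaid if the UAP1 duplexes were mixed or which library had which. RNA was taken 48 hours after transfection, with a medium change recorded at 6 hours in every library. There were 3 libraries per group, numbered 1 to 3 in each.

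Libraries held 21267240 to 25972582 counts, of which the 40 genes took 0.461% to 0.574%. UAP1, the targeted gene, had 7341, 9081 and 10848 counts in control replicates 1 to 3 and 521, 608 and 642 in siUAP1 replicates 1 to 3, a log2 difference of -4.02 (SE 0.0575) with replicate numbers as pairs, so the labels hold. Of 6 serous markers, KRT7 was abundant (102 FPKM, counts per gene length and library total), whereas PAX8 (0.166 FPKM) and WT1 (0.455 FPKM) were low, MUC16 had no counts, and EPCAM and CDH1 had at most 4 counts in any library. The 6 summed to 274 to 386 CPM in control libraries and 392 to 617 CPM with siUAP1, nearly all of it KRT7, which rose by 0.58 on the log2 scale (SE 0.0476), 1 of the 3 that were tested. Leukocyte and macrophage markers, cells rich in lysosomes, summed to 0.517 to 0.778 CPM (counts scaled to library size) in control and 1.14 to 1.93 CPM in siUAP1 libraries over 9 genes. AIF1, ITGAM, CD3E and MS4A1 had no counts in any library. CD14, the most abundant of the 9 per length, had 5, 10 and 0 counts in control and 15, 9 and 5 in siUAP1 libraries, and CSF1R had 6, 5 and 7 and 23, 21 and 24. CSF1R, the only gene of the 9 with enough counts to be tested, rose by 1.81 on the log2 scale with replicate numbers as pairs. It passed that test, at few counts, and its groups did not overlap. The endothelial markers PECAM1, VWF and CDH5 summed to 131 to 169 CPM in control and 133 to 172 CPM in siUAP1 libraries. Of these, 2 were tested and 0 passed with replicate numbers as pairs. The part of the serous, leukocyte, macrophage and endothelial markers in the results below was not tested. In bulk RNA, a change in the number of cells of a kind and a change in RNA per cell cannot be told apart.

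Lysosomes are acid compartments in which hydrolases take apart proteins, glycans and lipids delivered by endocytosis or by autophagy. The vacuolar proton pump keeps them acid, with a cytosolic sector that splits ATP and a membrane sector that moves protons. TFEB and TFE3 bind a palindromic promoter word, the CLEAR element, and drive many lysosomal and autophagy genes when the kinase complex mTORC1 at the lysosome is inactive. UAP1 makes UDP-GlcNAc, the sugar donor for N-glycans, which most lysosomal hydrolases carry, and for the phosphate tag that routes them to lysosomes.

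Promoter windows (250 bases before to 50 bases after the start, RefSeq, GRCh38.p14) were available for 29 of the 40 genes. Those without a window were ASAH1, ATP6V1A, ATP6V1B2, ATP6V1C1, ATP6V1H, CTSB, HEXA, LAMP2, MANBA, NAGLU and PSAP. The windows were searched on both strands for the CLEAR element, its core TCACGTGA and the E-box CACGTG. The element is the core with a G before it and a C after it, and each word contains the next. The full element stood in 2 of the 29 (GAA and MCOLN1) and in 0.381% of 27305 promoter windows. The core stood in 5 of 29 (those and LAMP1, CTSA and ATP6V0D1) and in 1.04% of all windows, and the E-box in 7 of 29 (adding NEU1 and CTSD) and in 7.43% of all. One match per gene, with a second for GAA, is shown because these genes went different ways in the data, with the longest of the 3 words present there in capitals.
GAA, chr17:80101495-80101520, plus strand: gaggccgcGTCACGTGACccaccgcg
GAA, chr17:80101540-80101565, plus strand: tcccgccgGTCACGTGACccgcctct
MCOLN1, chr19:7522600-7522625, plus strand: gctaccggGTCACGTGACcgaggcac
LAMP1, chr13:113297201-113297226, plus strand: cccgcgggaTCACGTGAcgcccgggc
CTSA, chr20:45891300-45891325, plus strand: cgccggagtTCACGTGActcgtacac
ATP6V0D1, chr16:67481201-67481226, minus strand: cccttatggTCACGTGAggcgcttgc
NEU1, chr6:31862932-31862957, minus strand: gctgcgtgatCACGTGggaggagatg
CTSD, chr11:1763959-1763984, minus strand: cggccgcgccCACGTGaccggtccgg
Of the 5 genes with the core, GAA and CTSA rose, ATP6V0D1 fell, and LAMP1 and MCOLN1 did not pass the test, by the fit with pairs described next. NEU1 and CTSD, with an E-box alone, rose. With none of the 3 words in their windows, IDS, LIPA, ATP6AP1, CTSL, GABARAPL1, SCARB2 and SQSTM1 also rose. The remaining genes with a window did not pass. Of all tested genes, 9.07% rose and 7.14% fell in that fit. A relation between words and differences was not tested. LAMP1 had 6 E-boxes in its window and a log2 difference of 0.05 (SE 0.0456). A match is a word in a window, not a bound site.

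The comparison asked how these genes differed with UAP1 knocked down. In the fit on the groups alone (edgeR quasi-likelihood test, adjusted over all tested genes, threshold 0.05), 0 of the 40 genes passed, against 0.108% of all tested genes. DESeq2 and limma-voom also called 0 without pairs, and 7 genes had an unadjusted p under 0.05 in edgeR, where 7.13% of all genes did. Libraries of the same replicate number varied together, so the numbers were taken as pairs and the replicate number was added to the fit as a block. With pairs, 15 genes rose and 2 fell, 17 of 40 (42.5%), against 16.2% of all tested genes (9.07% higher and 7.14% lower). From here on, rose and fell, fold changes and adjusted p refer to that fit unless stated. Among genes of at least 5 CPM on average, a choice made after seeing the data, 18 of 38 passed, against 23.0% of all such genes. Of the 18, 16 were higher (12.8% of all such genes were) and 2 lower (10.2%). The differences were small, from -0.54 to 0.34 on the log2 scale. Their median was 0.11, beside -0.00295 for all tested genes, and 31 of 40 lay above 0, against 49.3%. The 40 genes were chosen with earlier results of these data known, so these shares describe the set and do not test it.

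**Figure D1:**
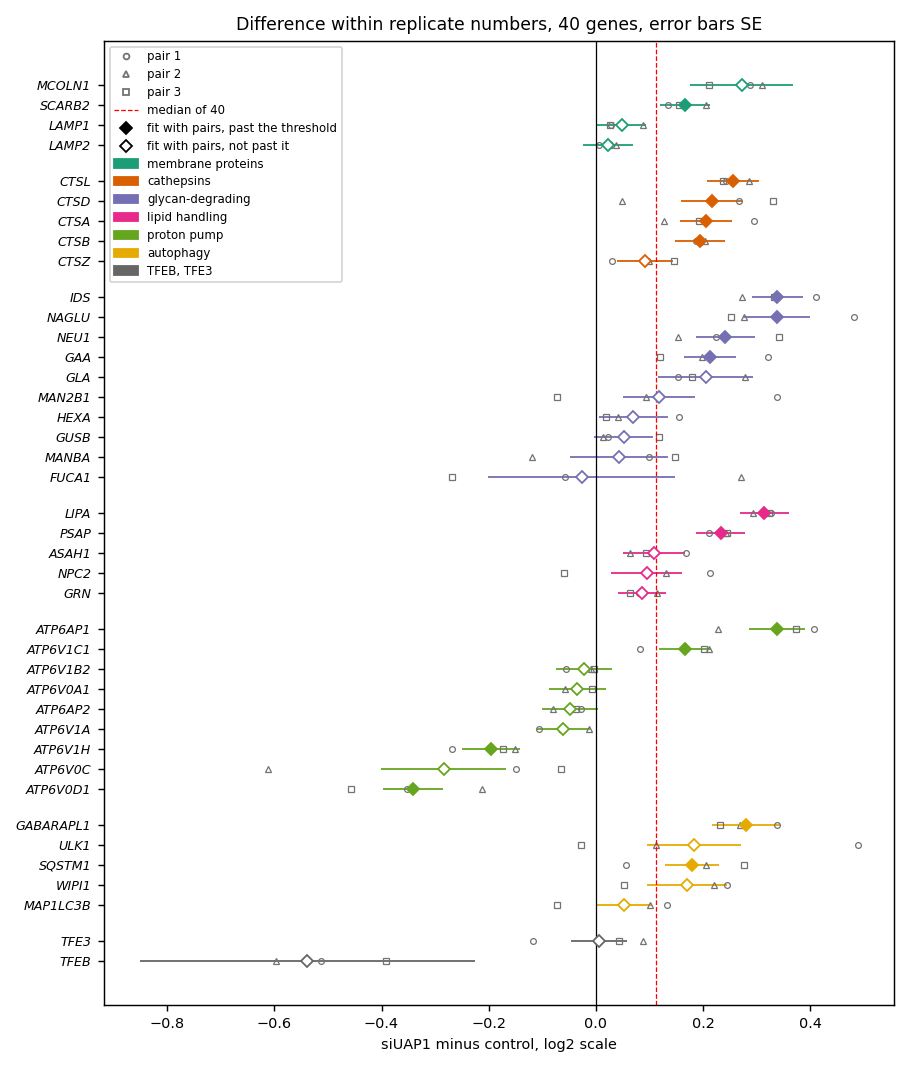
Difference between siUAP1 and control on the log2 scale (x axis) for each of the 40 genes, grouped by role. Diamonds are the fit with pairs with its SE, filled where past the threshold, grey symbols are the 3 pairs, and the red dashed line is the median of the 40. Cathepsins, glycan-degrading enzymes and autophagy genes lie mostly to the right of 0, while 7 of 9 proton pump genes lie to the left.

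Direction within pairs differed by role. Of the 40 genes, 25 were higher in siUAP1 in all 3 pairs (23.4% of all tested genes were) and 8 were lower in all 3 (23.6% of all). Those 8 were 7 of the 9 proton pump genes and TFEB. Only ATP6V0D1 and ATP6V1H of these passed. For ATP6V1A, ATP6V0A1, ATP6V1B2 and ATP6AP2 the differences were small, from -0.06 to -0.02, with SEs near 0.05. The CPM of the groups did not overlap for 7 genes that were higher (SCARB2, CTSB, CTSL, GLA, NAGLU, IDS and GABARAPL1), against 6.74% of all, and for 2 that were lower (ATP6V0D1 and ATP6V1A), against 5.71%. The median difference of the 40 was 0.14, 0.11 and 0.10 in pairs 1, 2 and 3.

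**Figure D2:**
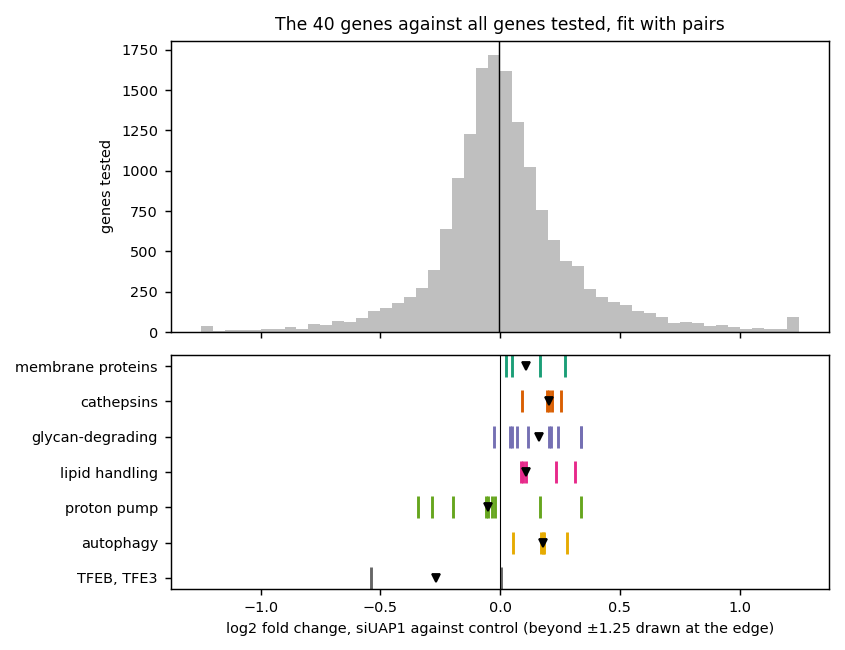
Upper panel: number of tested genes (y axis) by log2 fold change of siUAP1 against control in the fit with pairs (x axis), with values beyond the axis drawn at its edge. Lower panel: each gene of the 40 as a tick by role, with the role's median as a triangle. Every role but the proton pump and the transcription factors has a median above 0, and all ticks but that of TFEB lie between -0.34 and 0.34.

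Per gene length, PSAP was the most abundant of the 40, at 260 ± 31.6 FPKM in control libraries (SD, n = 3). CTSB followed at 114 ± 3.12 FPKM, GRN at 65.4 ± 5.27 and LIPA at 44.8 ± 5.68 FPKM. The control ranges of PSAP and CTSB stood clear of all others. TFE3, at 23.9 ± 3.95 FPKM, was far above TFEB, at 0.300 ± 0.194 FPKM, the lowest of the 40. Among glycan-degrading enzymes, GAA was highest (32.7 ± 2.90 FPKM) and MANBA lowest (1.51 ± 0.242 FPKM). In the proton pump, ATP6V1C1 was highest by control mean (22.3 ± 1.12 FPKM), followed by ATP6V1A (19.5 ± 0.566), and ATP6V0A1 was lowest (6.13 ± 0.868).

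**Figure D3:**
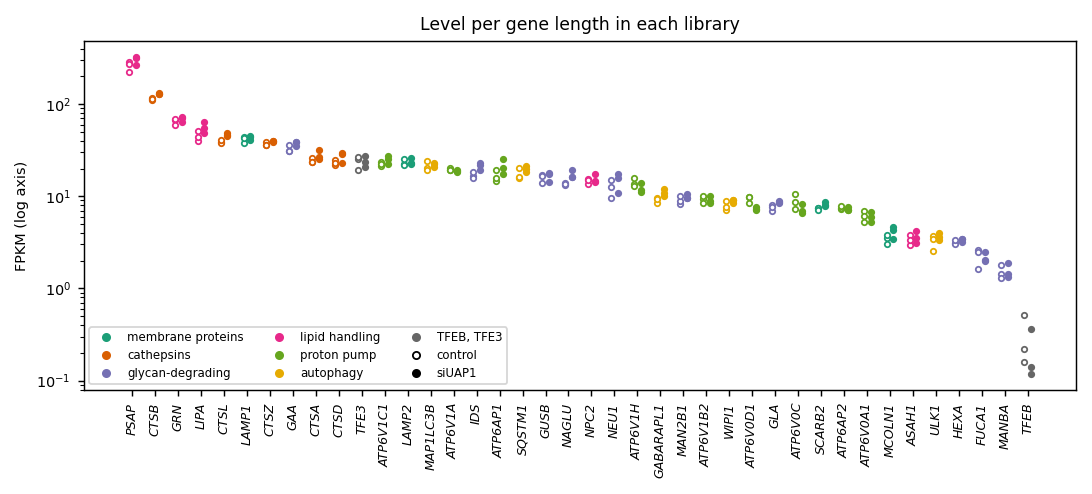
Level per gene length (FPKM, log axis) of each of the 40 genes in the 3 control (open) and 3 siUAP1 (filled) libraries, coloured by role and ordered by mean. PSAP and CTSB stand highest and TFEB lowest, and for most genes the open and filled points overlap.

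Of the cathepsins and CTSA, 4 of 5 rose and CTSZ did not pass. CTSL (ENSG00000135047, GRCh38 chromosome 9, 87725519 to 87731393, plus strand), an endopeptidase, was at 91.9, 91.2 and 97.8 CPM in control replicates 1 to 3 and 109, 111 and 115 CPM in siUAP1 replicates 1 to 3. Every siUAP1 library lay above every control library, and CTSL rose 1.19-fold (log2 0.26, SE 0.0491, adjusted p = 0.000533). CTSB (chromosome 8), an abundant endopeptidase, was at 874, 833 and 845 CPM in control and 994, 959 and 967 CPM in siUAP1 libraries. Its groups did not overlap either, with nearly equal differences in pairs 1 to 3 (0.19, 0.20 and 0.19; adjusted p = 0.00399). CTSA, which protects NEU1 in a complex, averaged 144 ± 9.17 CPM in control libraries and 166 ± 20.3 CPM with siUAP1 (SD, n = 3) and rose by 0.20 (adjusted p = 0.0042). CTSD, the aspartic protease, rose from 73.0 ± 3.96 to 85.2 ± 11.5 CPM (0.22, adjusted p = 0.00952), with a small difference in pair 2 (0.05) and larger ones in pairs 1 and 3 (0.27 and 0.33). For both, the groups overlapped. CTSZ, a carboxypeptidase, was at 75.7 ± 3.75 and 80.6 ± 1.41 CPM (0.09, SE 0.0523, adjusted p = 0.268). Without pair 3, CTSB (adjusted p = 0.134), CTSA (0.0738) and CTSD (0.228) no longer passed, while CTSL did (0.0221).

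The 10 glycan-degrading enzymes are summarised apart: 4 rose, 0 fell and 6 did not pass, with a median of 0.16, beside 0.10 for the other 30 genes. Those 30 include the 9 proton pump genes (median -0.05) and the factors TFEB and TFE3 (-0.27). The medians of the remaining roles were 0.20 for cathepsins with CTSA, 0.18 for autophagy, 0.11 for lipid and 0.11 for membrane genes. The enzymes thus did not stand above every other role. The share that passed was 40% of the enzymes and 43.3% of the other 30, beside 16.2% of all tested genes. The enzymes that rose were the heparan sulfate enzymes IDS and NAGLU, the sialidase NEU1 and the glycogen-degrading GAA. IDS (ENSG00000010404, GRCh38 chromosome X, 149476990 to 149521096, minus strand), which removes sulfate from iduronate in heparan and dermatan sulfate, was at 154, 148 and 169 CPM in control and 204, 178 and 213 CPM in siUAP1 libraries. The groups did not overlap, and IDS rose 1.26-fold (log2 0.34, SE 0.0475, adjusted p = 1.09e-05). NAGLU (ENSG00000108784, GRCh38 chromosome 17, 42536172 to 42544449, plus strand), which removes N-acetylglucosamine from heparan sulfate, was at 41.7, 40.7 and 41.0 CPM in control and 58.2, 49.3 and 48.9 CPM in siUAP1 libraries. The control libraries were close together and siUAP1 replicate 1 was highest. The difference was 0.34 (SE 0.0631, adjusted p = 0.000418), or 0.48, 0.28 and 0.25 in pairs 1 to 3.

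NEU1, which removes terminal sialic acid, was at 73.2, 46.9 and 61.2 CPM in control and 85.5, 52.1 and 77.5 CPM in siUAP1 libraries. Replicate 2 was the lowest of each group, and the groups overlapped although each pair was higher with siUAP1 (log2 0.24, SE 0.0558, adjusted p = 0.00328). GAA was at 163, 161 and 187 CPM in control and 204, 184 and 203 CPM in siUAP1 libraries. It rose 1.16-fold (0.21, SE 0.049, adjusted p = 0.0032), with an overlap between siUAP1 replicate 2 and control replicate 3. Without pair 3, NEU1 did not pass (adjusted p = 0.125), and IDS (0.00524), NAGLU (0.00919) and GAA (0.0254) did.

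Of the enzymes that did not pass, GLA, the alpha-galactosidase of glycolipids, had groups that did not overlap, at 18.5, 15.9 and 17.7 CPM in control and 20.6, 19.3 and 20.1 CPM in siUAP1 libraries (0.20, SE 0.0878, adjusted p = 0.122). MAN2B1 and MANBA, which remove alpha- and beta-linked mannose from N-glycans, had differences of 0.12 (SE 0.067) and 0.04 (SE 0.0915). HEXA, a subunit of beta-hexosaminidase, had 0.07 (SE 0.0637) and GUSB, the beta-glucuronidase, 0.05 (SE 0.0544). FUCA1, the fucosidase, at 4.61 ± 1.07 CPM in control, had -0.03 (SE 0.174), and its pairs went both ways (-0.06, 0.27 and -0.27). In the fit without pairs the enzymes' median was also 0.16, and it was 0.11 without control replicate 2. Together the 10 genes took 589 to 660 CPM in control and 665 to 758 CPM in siUAP1 libraries.

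Among genes of lipid breakdown and activator proteins, 2 of 5 rose. LIPA (ENSG00000107798, GRCh38 chromosome 10, 89213569 to 89414557, minus strand), which splits cholesteryl esters and triglycerides, was at 251, 196 and 217 CPM in control and 315, 241 and 272 CPM in siUAP1 libraries. The groups overlapped, yet the difference was nearly the same in each pair (0.33, 0.29 and 0.32), and LIPA rose 1.24-fold (SE 0.0454 on the log2 scale, adjusted p = 1.59e-05). PSAP, the precursor of the saposins that present sphingolipids to hydrolases, was at 927, 735 and 881 CPM in control and 1073, 869 and 1043 CPM in siUAP1 libraries. Again replicate 2 was lowest in both groups and all pairs moved alike (log2 0.23, SE 0.046, adjusted p = 0.000716). Without pair 3, PSAP did not pass (adjusted p = 0.0788). The cholesterol carrier NPC2 (0.09, SE 0.0666), the acid ceramidase ASAH1 (0.11, SE 0.0574) and progranulin, GRN (0.09, SE 0.0454), did not pass, with adjusted p of 0.388, 0.223 and 0.226.

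Of the 4 membrane proteins, SCARB2, a receptor that carries cargo to lysosomes, rose. It was at 144, 145 and 139 CPM in control and 158, 167 and 155 CPM in siUAP1 libraries, without overlap (0.17, SE 0.047, adjusted p = 0.0159). The calcium channel gene MCOLN1 had a larger difference, from 13.7 ± 1.56 to 16.6 ± 2.45 CPM (0.27, SE 0.0958), and did not pass (adjusted p = 0.0536). The abundant glycoproteins LAMP1 and LAMP2, which coat the lysosomal membrane, differed by 0.05 (SE 0.0456, adjusted p = 0.551) and 0.02 (SE 0.0473, adjusted p = 0.811). SCARB2 did not pass without pair 2 (adjusted p = 0.134) or pair 3 (0.134).

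The proton pump genes went both ways: 2 of 9 rose and 2 fell, and their median was -0.05. ATP6V0D1 (ENSG00000159720, GRCh38 chromosome 16, 67438014 to 67481237, minus strand), subunit d of the membrane sector, was at 81.1, 70.2 and 81.5 CPM in control and 63.5, 60.5 and 59.4 CPM in siUAP1 libraries. Every siUAP1 library lay below every control library, and the gene fell by 0.34 on the log2 scale (SE 0.0566, adjusted p = 9.9e-05), or by 21.1%. ATP6V1H, a regulatory subunit of the cytosolic sector, was at 68.9, 66.5 and 80.5 CPM in control and 57.2, 59.9 and 71.4 CPM in siUAP1 libraries. Replicate 3 was highest in both groups, and the groups overlapped (-0.20, SE 0.0542, adjusted p = 0.0131).

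ATP6AP1 (ENSG00000071553, GRCh38 chromosome X, 154428632 to 154436516, plus strand), an accessory protein of pump assembly, was at 95.4, 72.8 and 78.0 CPM in control and 126, 85.3 and 101 CPM in siUAP1 libraries. It rose 1.26-fold (0.34, SE 0.0522, adjusted p = 4.04e-05), with replicate 1 highest in both groups. ATP6V1C1, a cytosolic sector subunit, averaged 132 ± 7.01 CPM in control libraries and 148 ± 14.6 CPM with siUAP1 and rose by 0.17 (SE 0.0484, adjusted p = 0.0187). The catalytic subunit gene ATP6V1A had groups that did not overlap, at 101 ± 2.79 and 96.9 ± 1.83 CPM, and a difference of -0.06 (SE 0.0498, adjusted p = 0.476). ATP6V1B2 (-0.02), ATP6V0A1 (-0.03) and ATP6AP2 (-0.05) had SEs of 0.0525, 0.0534 and 0.0526. The proteolipid gene ATP6V0C had -0.28 (SE 0.116, adjusted p = 0.103), most of it from pair 2 (-0.61, beside -0.15 and -0.07). Summed over the 9 genes, control libraries held 671 to 706 CPM and siUAP1 libraries 676 to 702 CPM. Without pair 3, ATP6V0D1 (adjusted p = 0.0241) and ATP6AP1 (0.0111) passed and ATP6V1C1 (0.211) and ATP6V1H (0.0946) did not. ATP6V1C1 also failed without pair 2 (0.145) and ATP6V1H without pair 1 (0.0673).

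**Figure D4:**
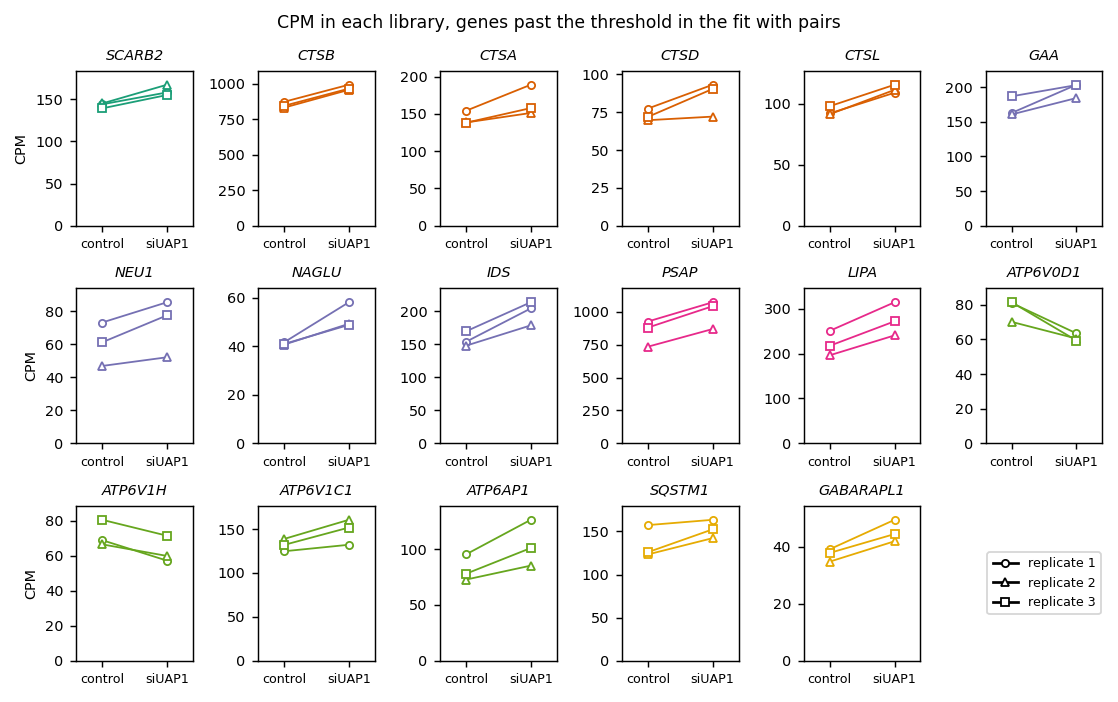
CPM (y axis, from 0) in control and siUAP1 libraries for the 17 genes past the threshold in the fit with pairs, with lines joining libraries of the same replicate number. Lines slope upward in all panels but those of ATP6V0D1 and ATP6V1H. For CTSA, CTSD, NEU1, LIPA, PSAP, ATP6AP1, ATP6V1C1, ATP6V1H and SQSTM1 the replicate numbers stand further apart than the groups.

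Of the 5 autophagy genes, 2 rose. GABARAPL1 (ENSG00000139112, GRCh38 chromosome 12, 10212458 to 10223130, plus strand), which is conjugated to autophagosome membranes, was at 39.2, 34.8 and 37.9 CPM in control and 49.5, 42.0 and 44.5 CPM in siUAP1 libraries. The groups did not overlap, and it rose 1.21-fold (0.28, SE 0.0633, adjusted p = 0.00275). SQSTM1, the receptor that carries ubiquitinated cargo, was at 157, 123 and 126 CPM in control and 164, 142 and 152 CPM in siUAP1 libraries. Control replicate 1 lay among the siUAP1 libraries (0.18, SE 0.0504, adjusted p = 0.0152), and SQSTM1 did not pass without pair 2 (0.0755) or pair 3 (0.290). The autophagosome protein gene MAP1LC3B (0.05, SE 0.0513), the lipid-binding WIPI1 (0.17, SE 0.0747) and the initiating kinase ULK1 (0.18, SE 0.0871) did not pass, with adjusted p of 0.562, 0.132 and 0.169. ULK1 was higher in pair 1 (0.49) and near 0 in pair 3 (-0.03).

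Neither transcription factor passed. TFE3 was at 110, 84.6 and 116 CPM in control and 101, 89.9 and 120 CPM in siUAP1 libraries, a difference of 0.01 (SE 0.052, adjusted p = 0.967). TFEB was at 2.96, 1.26 and 0.901 CPM in control and 2.05, 0.804 and 0.667 CPM in siUAP1 libraries. It was lower in each pair but with a wide error (-0.54, SE 0.313, adjusted p = 0.277), at levels where the spread over replicate numbers was 1.57 on the log2 scale.

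Further genes of the same pathways were taken from fixed lists, whose counts are read against the 16.2% of all tested genes that passed, or 23.0% among those of at least 5 CPM. Shares of 16.7% to 27.3% passed in the 6 lists, near these backgrounds, which count both directions. By direction, 9.07% of all tested genes were higher and 7.14% lower, or 12.8% and 10.2% among those of at least 5 CPM. All calls were higher among the glycan-degrading enzymes (21.1%), the lysosomal genes (25.8%) and the mannose 6-phosphate genes (16.7%, 1 gene). In the mTORC1 list all were lower (20%). Those shares lie above the backgrounds of their direction, but that direction was taken from the calls themselves. They rest on few genes and were not tested. The proton pump and autophagy lists had calls in both directions. Of 19 other glycan-degrading enzymes and helpers, 4 rose and 0 fell (21.1% passed). ARSB, a sulfatase of dermatan sulfate, was among them (0.34, SE 0.0917, adjusted p = 0.0123). Of 14 other proton pump subunits, 11 were tested, of which 27.3% passed: ATP6V1D rose (0.34, SE 0.0641) and the membrane sector genes ATP6V0E1 (-0.24, SE 0.0552) and ATP6V0E2 (-0.29, SE 0.059) fell. Of 32 other lysosomal genes, 31 were tested, of which 8 rose and 0 fell (25.8%), including the thioesterase gene PPT1 (0.34, SE 0.0486), the cholesterol transporter gene NPC1 (0.31, SE 0.0478), the protease gene CTSK (0.31, SE 0.0624) and the legumain gene LGMN (0.23, SE 0.0549). The medians of these 3 lists were 0.13, -0.00855 and 0.13, and that of the pump subunits was 0.0014 without pairs. ATP6V1D shares 6.33% of its exon bases with EIF2S1 (152 CPM) on the opposite strand.

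Of 34 other core autophagy genes, 7 rose and 1 fell (23.5%), with a median of 0.04. ATG9A, a scramblase of growing autophagosomes, rose 1.41-fold (0.50, SE 0.08), as did the lipid transfer genes ATG2A (0.30) and ATG2B (0.34) and the cargo receptor gene OPTN (0.28), while ATG12 fell by 0.24. Of 6 genes of mannose 6-phosphate tagging and sorting, 1 passed (16.7%), the receptor gene IGF2R (0.29, SE 0.0499, adjusted p = 0.000141). GNPTAB, which encodes the transferase that uses UDP-GlcNAc to start the tag, had 0.15 (SE 0.0561, adjusted p = 0.0761). In a list of 20 genes, 19 of control of TFEB through mTORC1 at the lysosome and MITF, 0 rose and 4 fell (20%). These were the mTORC1 subunit genes AKT1S1 (-1.14, SE 0.0755) and MLST8 (-0.20), the folliculin partner gene FNIP2 (-0.40) and MITF itself (-0.22), a transcription factor related to TFEB. AKT1S1 shares 6.83% of its exon bases with TBC1D17 (28.3 CPM) on the opposite strand. In the fit without pairs no gene of these lists passed.

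In 28 of the 40 genes the range of the 3 pair means exceeded the siUAP1 difference, a smaller share than the 82.1% of all tested genes. A range over 3 means is set here against a single difference between groups, which favours the range. The median range was 0.23 on the log2 scale, beside 0.34 for all tested genes. NEU1 (0.68) and ATP6AP1 (0.48) ranged widely, and PSAP (0.32) and LIPA (0.37) lay near the median of all tested genes. CTSB (0.06), SCARB2 (0.08) and CTSL (0.09) hardly varied between numbers. On the first principal component of the 40 genes (50.6% of their variance), replicate 1 of both groups (-1.28 and -1.20) stood apart from replicates 2 and 3 (0.58 to 0.70). On the second (31.6%), each siUAP1 library lay above the control of its number.

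The count of 17 fell to 8 without pair 3, to 14 without pair 2 and to 16 without pair 1. CTSL, IDS, NAGLU, LIPA, ATP6AP1, GABARAPL1 and ATP6V0D1 passed in each of 10 versions of the fit with pairs. With all pairs kept, CTSD, SCARB2, ATP6V1C1, ATP6V1H and SQSTM1 did not pass in DESeq2. They also failed in limma on log2(FPKM + 1), as did CTSA, GAA and NEU1. The counts of some genes are uncertain because other annotated genes share exons with them and the use of strand is not given. SQSTM1 shares 20.7% of its exon bases with MRNIP (17.7 CPM) on the opposite strand, and WIPI1 24.3% with ARSG (4.05 CPM). Same-strand transcripts of other genes cover 57.5% of the exon bases of ATP6V0C and 41.7% of those of CTSD, PPT1 overlaps CAP1 on the opposite strand (23.4%, 230 CPM), and MAP1LC3B has a near copy in MAP1LC3B2 (98.5% identical over 411 bases, 3.24 CPM).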

How the data were processed

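Libraries of 3 control and 3 siUAP1 samples are labelled as polyA RNA. The protocol in the labels also names ribosomal RNA depletion as the other option, so the method used is not settled. The authors deposited raw counts per gene and FPKM, whose implied totals were 0.988 to 1.03 times the summed counts. The submitters' processing notes name GRCh38.p12 and DESeq2. The sources used here give no aligner, counter or use of strand. Start and end of all 58735 genes match GENCODE 29.

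edgeR 4.0.16 (R 4.3.3) was run with TMM scaling, a minimum count of 10 (filterByExpr), a quasi-likelihood test of the group and p-values adjusted by Benjamini-Hochberg over 15768 genes. Whether replicate numbers pair libraries was judged first: deviations from group means correlated at 0.552, 0.454 and 0.584 for equal numbers (minimum set at 0.1) and at -0.434 to -0.0893 otherwise. Deviations cancel out within a group, so the negative values are tied to the positive ones and add no separate evidence. Library names in the labels also share a stem within each number, whose meaning they do not state. Separate cultures are not stated, and p-values therefore reflect spread among these libraries alone, possibly technical. Replicates of a group differed by more than sampling of counts gives (chi-square over its degrees of freedom 23.9 to 41.3). Values of single pairs use log2 CPM with a prior count of 2. SE is the fold change over the root of the F statistic. Alternatives used DESeq2 1.42.0 and limma 3.58.1 (voom, or log2(FPKM + 1) and log2(FPKM + 0.1)). The fits were also run on data simulated with a level per gene and replicate number. That run assumed the pairs, so it cannot show whether they hold here.

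The members and lists were chosen with earlier results of these data known. By rule, UAP1, members past the threshold in either fit, the leading 2 of each role, the most abundant of each role, up to 4 called genes per further list and the most abundant marker are named. Others are given to complete a role. Some genes of the further lists are counted but not reported by name here.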

Additional observations from a re-analysis of the deposited data

How the results depend on the processing

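The median log2 difference of the 40 genes was above 0 in every alternative run, as was that of the glycan-degrading enzymes. No called gene changed sign, and UAP1 passed in all 25 alternatives. Without pairs, 0 of the 40 genes passed in any alternative, while 17 of all genes passed in edgeR, 273 without the filter on low counts, 165 in DESeq2, 2 in limma on log2(FPKM + 1), 1 without its filter and 3 on log2(FPKM + 0.1). Leaving out single libraries gave 1 to 3 genes, medians of 0.0921 to 0.143 for the 40 genes and 0.106 to 0.202 for the enzymes, beside 0.115 and 0.160. Genes of at least 5 CPM gave medians of 0.147 and 0.208.

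With the replicate number as a block (the pairs), 2556 genes and 17 of the 40 passed. These counts were 2539 and 17 with DESeq2's size factor scaling (RLE), 2545 and 17 in limma-voom, and 1296 and 12 in DESeq2. Leaving out pair 1, 2 or 3 gave 2204 and 16, 1987 and 14, and 1195 and 8. Without pair 1 the medians were 0.0839 for the 40 genes and 0.112 for the enzymes, and without pair 3 they were 0.138 and 0.201. Versions chosen after seeing the data gave 2513 and 18 for genes of at least 5 CPM (medians 0.146 and 0.209), 2587 and 17 with library totals and 944 and 9 on log2(FPKM + 1). The causes of these changes were not tested, except that leaving out a pair fits fewer libraries. With 3 libraries a group, differences of the size seen here passed only once the replicate number was in the fit, and TFEB and FUCA1, at few counts, had the widest errors.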
